A study of Mus musculus with 3 samples.

Results

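The actin and tubulin mRNAs are among the most abundant transcripts of animal cells, and 9 genes of that kind are described here by the places where RNA precipitated with MTR4: the actin genes Actb and Actg1, the tubulin genes Tuba1a, Tuba1b, Tubb5 and Tubb4b, and the genes of the actin-binding proteins thymosin beta 10 (Tmsb10), cofilin 1 (Cfl1) and profilin 1 (Pfn1). A peak was assigned to a gene when its midpoint lay in the gene body that RefSeq annotates. The genes were selected on their place in the cytoskeleton with the peaks of this very list already known, and Actb was picked as the one with the most peaks. Their numbers of peaks are therefore given as a description, without a test. Of the 15769 peaks in the list, 15 lay in these genes (0.0951%, exact 95% interval 0.0532 to 0.157, which covers counting error only).

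All samples came from KIT-positive cells sorted from mouse testes at postnatal day 8, with the genotype label Mtr4WT. There were 3 of them in 1 group, crosslinked with ultraviolet light and precipitated with an antibody to MTR4, and none was a control precipitation, an input library or a mutant. One peak list was analysed, so no value has a replicate check and no groups could be compared. GEO records it under replicate 3, but its deposited name reads as a merge of libraries, so whether the 15769 peaks come from 1 library or from several is not settled. The list gives a position and a strand sign for each peak and no read count, so the depth behind a peak is unknown, and abundant RNA that precipitates without MTR4 cannot be told apart from RNA that MTR4 contacts. KIT marks differentiating spermatogonia. Of 10 marker genes of these cells, 5 held a peak (Kit 2, Dmrt1 2, Kdm5b 3, Ddx4 1 and Sohlh2 1), while Stra8, Dazl, Sohlh1, Ccnd2 and Dnmt3b held 0. The median length of these 10 genes was 33.1 kb, and 25.5% of all protein-coding genes held a peak. Markers of other testis cells held peaks as well: 3 of 8 for Sertoli cells, 5 of 7 for Leydig and interstitial cells, 2 of 7 for blood, endothelium and macrophages, and 1 of 6 for the contractile peritubular myoid cells, where Myh11 held 1 peak and Acta2, Actg2, Cnn1, Des and Tagln held 0. These lists are short, their median lengths run from 12.6 to 61.1 kb, and a peak in a marker gene does not measure how many cells of a type were present. What these cells contributed to the peaks of the cytoskeleton genes was not tested.

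As background, actin filaments and microtubules give the cell its shape, carry its cargo and divide it. Beta-actin and gamma-actin, the products of Actb and Actg1, are the cytoplasmic actins and are nearly identical as proteins. Microtubules are polymers of alpha-tubulin (Tuba genes) and beta-tubulin (Tubb genes). Profilin promotes nucleotide exchange on actin monomers and delivers them to growing filaments, beta-thymosins hold monomers in reserve, and cofilin severs filaments and speeds their turnover. MTR4 is the RNA helicase that feeds nuclear RNA to the exosome, a complex that degrades or trims it. LACE-seq maps protein contacts by the points at which reverse transcription ends on crosslinked RNA.

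Among the listed genes, 1 stretch under a peak could be read in full from the RefSeq promoter table (build GRCm38.p6, whose coordinates are those of mm10). It lies in Tuba1b at chr15:98934341-98934360 and covers bases 31 to 50 after the annotated start of transcription, on the minus strand. The whole window, chr15:98934341-98934640, runs from 250 bases before the start to 50 after it and is shown because it places the peak at its very end. The capitals mark the bases under the peak.
Tuba1b: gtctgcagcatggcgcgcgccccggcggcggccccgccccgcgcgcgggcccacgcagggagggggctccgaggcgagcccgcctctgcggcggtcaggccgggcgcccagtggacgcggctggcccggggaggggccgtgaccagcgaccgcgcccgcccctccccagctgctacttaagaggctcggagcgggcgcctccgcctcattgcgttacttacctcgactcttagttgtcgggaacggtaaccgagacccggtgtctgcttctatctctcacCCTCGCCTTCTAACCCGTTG

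Tuba1a, the neighbouring alpha-tubulin gene, held 0 peaks. Its bases at the same distance from its own start, chr15:98953452-98953471 on the minus strand, are set under those of Tuba1b, where capitals again mark the peak.
Tuba1b: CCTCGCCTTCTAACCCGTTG
Tuba1a: agccgcgaagcagcaaccat
The 2 stretches match at 5 of 20 positions. Read on the minus strand, C or T made up 15 of the 20 bases in Tuba1b and 8 of 20 in Tuba1a. The peak carries the plus sign, and which strand the precipitated RNA came from is not stated. Nothing is read from these letters.

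Actg1 had a peak just after its start, at bases 56 to 75 (chr11:120348421-120348440). The promoter table covers 13 of its 20 bases through the window of the lncRNA gene 0610009L18Rik, which starts on the other strand nearby. Bases 39 to 68 of Actg1 (chr11:120348428-120348457, minus strand) are shown with the covered part of the peak in capitals.
Actg1: gccgctcctccgtcgccGCCGCGTCCTTCG
A further peak lay before the start of Actg1, at bases -265 to -246 from it, and 5 of its bases fall in the Actg1 promoter window (chr11:120348446-120348745, minus strand). In the window, the first capitals mark those 5 bases and the second mark the CArG box, the element that serum response factor (SRF) binds in actin promoters.
Actg1: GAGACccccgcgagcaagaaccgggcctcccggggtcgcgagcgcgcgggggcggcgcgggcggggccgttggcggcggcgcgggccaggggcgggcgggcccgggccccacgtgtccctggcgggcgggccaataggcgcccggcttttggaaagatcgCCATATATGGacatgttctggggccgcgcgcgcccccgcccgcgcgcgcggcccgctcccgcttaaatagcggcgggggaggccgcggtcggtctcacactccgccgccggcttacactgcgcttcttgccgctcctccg

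The CArG box of Actg1 spans bases -90 to -81 from the start, between its 2 peaks nearest the start. Actb has no promoter entry, so its promoter could not be searched. Of the 8 listed genes with an entry, Actg1 alone held a CArG box, which 1.52% of 21263 windows of protein-coding genes hold. The GC box (GGGCGG, either strand) was present in 8 of 8, against 46.2% of all windows, and the CCAAT box (CCAAT, either strand) in 5 of 8 (Actg1, Cfl1, Tuba1a, Tubb4b and Tubb5), against 38.2%. A TATA box (TATAAA, either strand) was found in Tubb4b alone, against 12.6% of all windows. The listed genes are counted here by gene and the background by window, so the units of these shares differ. Among the listed genes, Tmsb10 alone has several windows. Among genes with a peak, Tuba1b and Pfn1 held the GC box and none of the other motifs searched. GC content of the window was 77.3% for Actg1 and 72.7% for Tuba1b, while Pfn1 stood at 57.0%, close to the median of 56.3% over all windows. A letter match is no evidence that a factor binds there.

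Peaks were unevenly spread over the 9 genes. Actb held 9, Actg1, Tuba1b and Pfn1 held 2 each, and Tuba1a, Tubb5, Tubb4b, Tmsb10 and Cfl1 held 0. Thus 4 of 9 had at least 1 peak, and the same 4 had at least 2. In the whole table, 25.5% of 21887 protein-coding genes had at least 1 peak and 8.55% at least 2. Long genes hold peaks more often, and the listed genes are short, 1402 to 4956 nt. Among protein-coding genes of up to 10 kb the shares were 10.2% and 1.91%, and among those of up to 5 kb they were 7.43% and 1.49%. Because the genes were chosen with their peaks known, nothing is read from the difference.

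**Figure D1:**
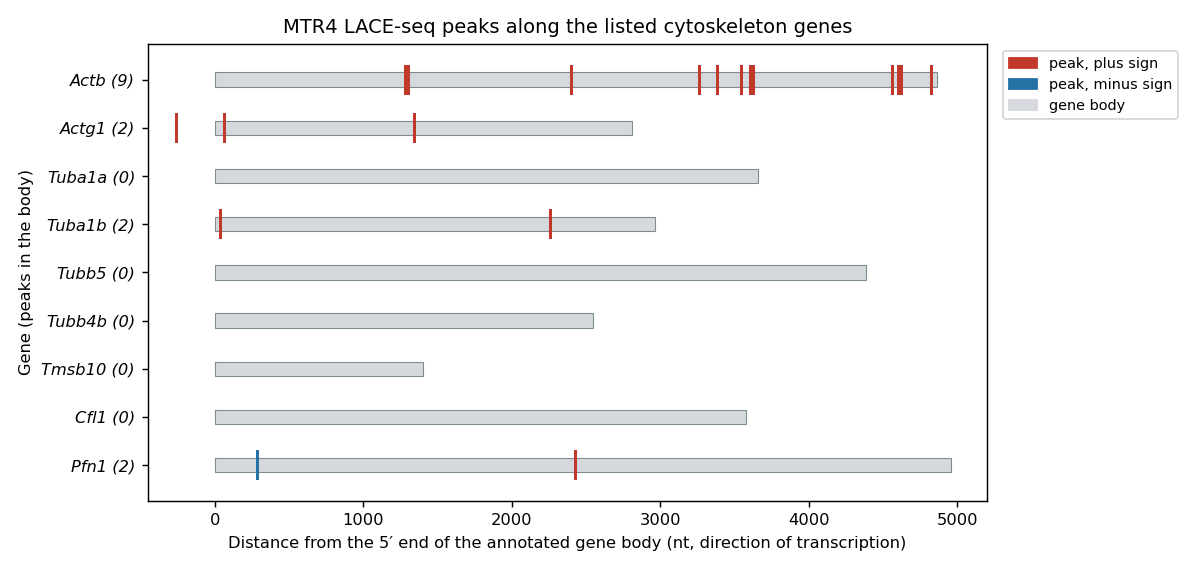
Peaks along the 9 genes. Each grey bar is an annotated gene body drawn from its 5′ end (horizontal axis in nt), red marks are peaks of plus sign and the blue mark is the peak of minus sign; the number beside a gene counts the peaks in its body. Actb carries 9 peaks, most of them toward the 3′ end of its annotated body, which joins a curated and a predicted transcript. Actg1 and Tuba1b each have 1 within 100 nt of the 5′ end.

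Actb, on chromosome 5 from 142903115 to 142907976, carried 60.0% of the peaks in these genes. They lay at 142903141 to 142903160, 142903341 to 142903380, 142903401 to 142903420, 142904341 to 142904380, 142904421 to 142904440, 142904581 to 142904600, 142904701 to 142904720, 142905561 to 142905580 and 142906661 to 142906700. All 9 carried the plus sign. Actb is known to be transcribed from the minus strand, so in the direction of transcription the first peak lay 26.6% of the way along the gene body and the second 49.5%. A group of 4 followed between 67.2% and 74.4%, and a group of 3 between 93.9% and 99.2%, the last of them with its midpoint 35.5 nt inside the 3′ end. With the body divided into 3 equal parts, the first and the middle part held 1 each and the part at the 3′ end held 7. The table gives the joint span of a curated and a predicted transcript of Actb, so the distance from the start of the curated transcript was not measured here, and exons and introns were not told apart.

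The Actb peaks were close together. Between neighbouring peaks, 5 of 8 gaps were under 200 nt, with a median of 160 nt, a smallest gap of 20 nt and a largest of 1080 nt. Joining neighbours with a gap under 100 nt left 7 in Actb. Of its 9 peaks, 3 were 40 nt wide (33.3%, exact interval 7.49 to 70.1) and the rest 20 nt, whereas all 6 peaks of Actg1, Tuba1b and Pfn1 were 20 nt. Among peaks in the other protein-coding genes, 2.77% of 8563 were 40 nt or wider, and among those in other genes of up to 10 kb with at least 4 peaks, 9 of 116 (7.76%). Peaks of 1 gene are not independent of each other, and the difference was not tested.

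The 3 peaks nearest the 3′ end of Actb also lie in Gm38733, an lncRNA gene of the plus strand that overlaps Actb. The other 6 lie in no second gene. The nearest peak outside Actb was 8.06 kb away.

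Actb was dense in peaks but not the densest. It held 1.85 peaks per kb, 269 times the number expected from its length and the peak density of chromosome 5, and 116 times the number expected from the density within 500 kb on either side. Both expected numbers, 0.0335 and 0.0778 peaks, are far under 1, so these ratios are large for any short gene with several peaks. In all, 15 protein-coding genes had 9 peaks or more, 4 of them of up to 10 kb. Ordered by peaks per kb, Actb came 13th of the 151 protein-coding genes of up to 10 kb with at least 2 peaks.

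**Figure D2:**
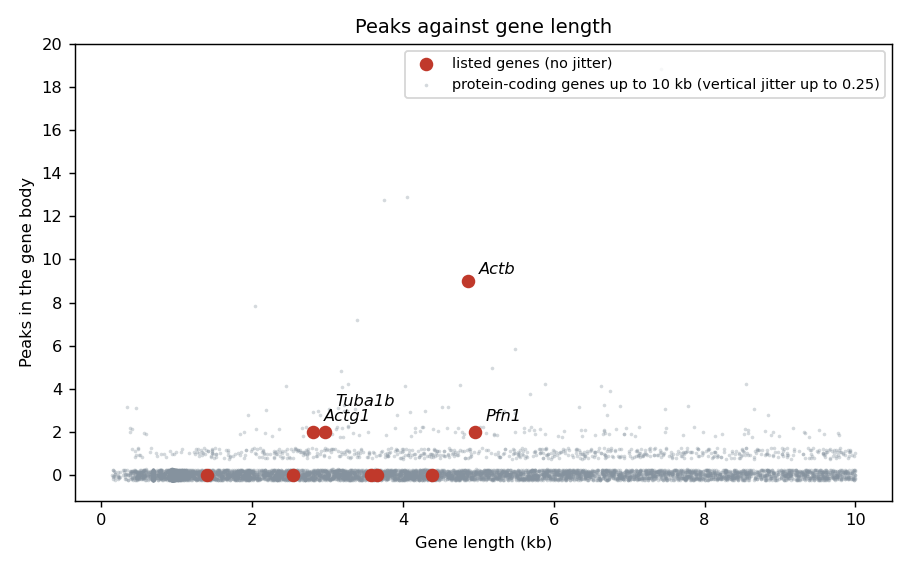
Number of peaks in the gene body (vertical axis) against gene length in kb (horizontal axis). Red points are the 9 listed genes, and grey points are the 7926 protein-coding genes of up to 10 kb, spread vertically by up to 0.25 so that they do not cover each other; Actb with 9 peaks stands far above Actg1, Tuba1b and Pfn1 with 2 each.

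Few genes of the length of Actb held as many peaks. Of 2894 other protein-coding genes between 3242 and 7293 nt, which is within 1.5 times the length of Actb, 388 had a peak (13.4%) and 2 had at least as many as Actb. Egr1, one of these 2 and an immediate early transcription factor gene, held 13 peaks, all of minus sign. With fewer peaks than Actb, Fos, another immediate early gene, held 7, all minus. Eif4a1, which encodes the helicase of translation initiation, held 6, all plus. Rpl4, a ribosomal protein gene, held 5, all minus. Peaks in or near small RNA genes were not left out of these counts. The likeness is in the number of peaks within 1 list and says nothing about shared control.

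Actg1, on chromosome 11 from 120345687 to 120348495, had peaks at 120347141 to 120347160 and 120348421 to 120348440. Both were of plus sign, and Actg1 is transcribed from the minus strand. Their midpoints stood 1344.5 and 64.5 nt after the annotated start. The peak upstream of the gene, at 120348741 to 120348760, was of plus sign too; its midpoint lay at -255.5 nt, outside the body, the nearest of any peak left out by the midpoint rule, and inside 0610009L18Rik. The inner peak at 120347141 lies within 1 kb of the nested miRNA gene Mir6935. Without such peaks Actg1 kept 1. With 2 peaks where 0.0232 were expected from the chromosome and 0.0730 from the surroundings, the ratios were 86.4 and 27.4.

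The alpha-tubulin pair differed. Tuba1b, on chromosome 15 from 98931429 to 98934390, had peaks at 98932121 to 98932140 and at 98934341 to 98934360, with midpoints 2259.5 and 39.5 nt after its start, and Tuba1a, on the same chromosome from 98949847 to 98953501, had none. Both Tuba1b peaks were of plus sign, against its transcription from the minus strand. Both also lie in Gm41396, an lncRNA gene of the plus strand that overlaps Tuba1b. The ratio to the expected number was 117 for Tuba1b by chromosome and 37.5 by surroundings. The peak nearest to Tuba1a was the one at the start of Tuba1b, 15.5 kb away. A difference of 2 peaks against 0 in a list without counts has no error that can be given, so the genes were not shown to differ.

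Pfn1 was the exception in sign. It spans 70651844 to 70656799 on chromosome 11 and had a plus peak at 70654361 to 70654380 and a minus peak at 70656501 to 70656520. Pfn1 is transcribed from the minus strand, and the promoter table places its start at 70654650, inside the body given by the gene table. From that start the plus peak covered bases 271 to 290, while the minus peak lay at bases -1870 to -1851. Both peaks lie in the body of Eno3 too, the gene of the muscle enolase, which is transcribed from the plus strand and overlaps Pfn1. The minus sign is thus opposite to the strand of Eno3 and the plus sign to that of Pfn1, and to which of the overlapping genes a peak belongs was not tested. The ratio to the expected number was 48.96 for Pfn1 by chromosome and 40.4 by surroundings.

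The beta-tubulin genes Tubb5 (chromosome 17, 35833920 to 35838301) and Tubb4b (chromosome 2, 25222158 to 25224702), the thymosin gene Tmsb10 (chromosome 6, 72957347 to 72958748) and the cofilin gene Cfl1 (chromosome 19, 5490455 to 5494031) held no peak, like Tuba1a. The nearest peak stood 77.5 kb from Tubb5, 17.4 kb from Tubb4b, 128 kb from Tmsb10 and 8.70 kb from Cfl1. None of the 5 genes gained a peak when the body was extended by 1 kb on each side. At the density of their chromosomes, 0.00800 to 0.0334 peaks were expected in each and 0.107 in all 5. A count of 0 was taken to allow up to 3 peaks, a fixed allowance for counting error that was not computed from these data. Thus no peak was listed in these 5 genes, and with the depth unknown this does not show that MTR4 made no contact there.

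Reads of near-identical transcripts can be placed on more than 1 gene, and how the authors treated them is not given in the sources used here. The gene table names 4 pseudogenes after a listed gene, Actb-ps1, Actg-ps1, Tubb4b-ps1 and Tubb4b-ps2, and all 4 held 0 peaks. Pseudogenes named otherwise were not counted.

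Nearly all peaks of these genes carried 1 sign. In the 4 genes with peaks, all on the minus strand, 14 of 15 peaks carried the opposite, plus sign (93.3%, exact interval 68.1 to 99.8), and 5 of 6 did so without Actb (83.3%). Some of these plus peaks also lie in an overlapping gene of the plus strand, whose strand their sign matches. They are the 3 Actb peaks nearest its 3′ end, both peaks of Tuba1b and the plus peak of Pfn1. Over the whole list the plus sign was the rarer one, with 6105 of 15769 peaks (38.7%). In other protein-coding genes of the minus strand, 1296 of 3484 peaks had the plus sign (37.2%). In the others of either known strand, 3628 of 6903 had the sign opposite to the gene (52.6%). In these counts of other genes, a peak in several overlapping genes was counted once for each of them. Of 14 others of up to 10 kb with at least 4 peaks and a known strand, 10 had all peaks of the opposite sign and 2 had none, 84.1% of 82 peaks in all. Short genes with a single peak showed 263 of 513 (51.3%). No label states how the sign relates to the strand of the RNA. Peaks of 1 gene share their source, so the intervals are too narrow, and the differences were not tested.

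**Figure D3:**
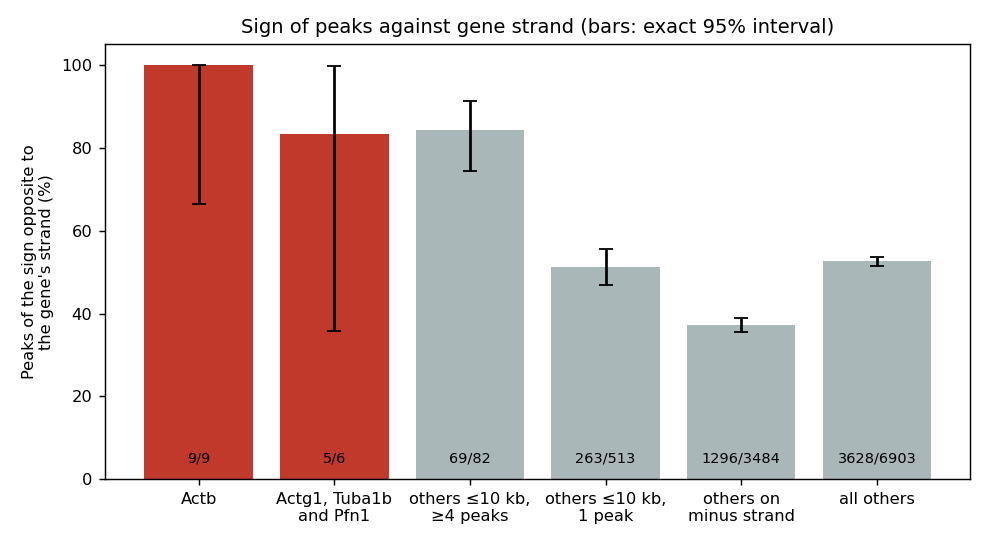
Share of peaks whose sign is opposite to the strand of the gene (vertical axis, percent), with exact 95% intervals and the number of peaks in each bar. A peak in several overlapping genes counts once for each. Some peaks in the red bars also lie in a gene of the plus strand, whose strand their sign matches. Red bars are Actb (9 of 9) and Actg1, Tuba1b and Pfn1 together (5 of 6); grey bars are other protein-coding genes, from 84.1% for short genes with at least 4 peaks to 37.2% for genes of the minus strand.

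Peaks also sat close to annotated starts. Among the 8 listed genes with an annotated start, 3 (Actg1, Tuba1b and Pfn1) had a peak of the opposite sign in the first 300 nt, against 2.14% of 17492 protein-coding genes, and the same 3 had one of either sign, against 4.33%. Tuba1b had it in the first 50 nt, as did 57 of all genes (0.326%). The 300 nt limit was set after the positions were seen, and genes with any peak are more likely to have one there, so the count is descriptive. Peaks of both signs gathered at starts in other genes as well, with 125 of the opposite and 144 of the same sign in the first 100 nt, against 24 and 20 between 900 and 1000 nt.

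**Figure D4:**
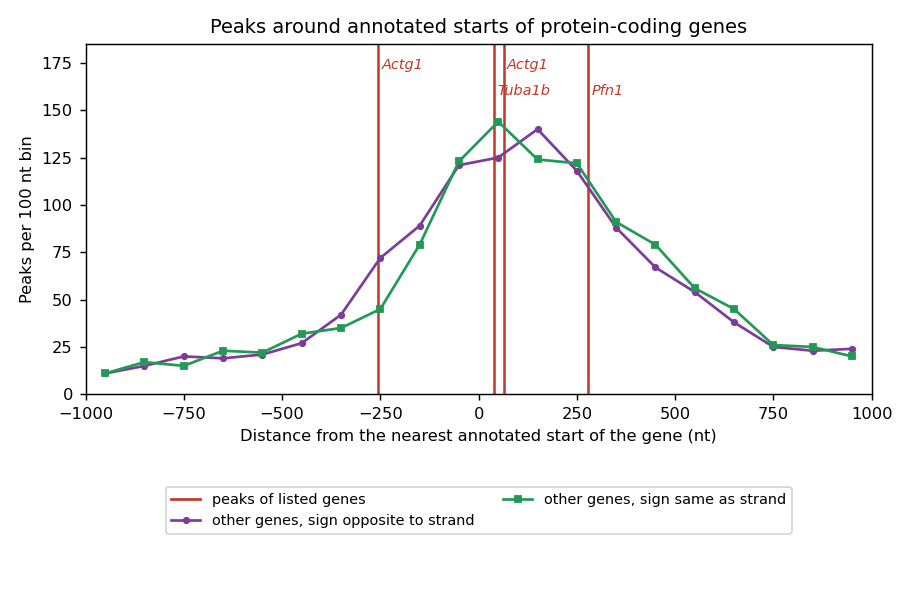
Peaks around annotated starts. The vertical axis counts peaks of other protein-coding genes in bins of 100 nt by distance from the nearest start of the gene (horizontal axis, nt), for the opposite sign (purple) and the same sign (green); red lines are the peaks of Actg1, Tuba1b and Pfn1 within 1000 nt of a start, at -255.5, 39.5, 64.5 and 279.5 nt.

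Along the body, the peaks of opposite sign in the listed genes were divided as 3 in the first part, 3 in the middle and 8 in the part at the 3′ end, and 7 of those 8 were in Actb. Without Actb, 2, 2 and 1 were found. The plus peak of Pfn1 counts in the middle of the annotated body, though it covers bases 271 to 290 after the start in the promoter table. In other protein-coding genes of 1 to 10 kb, 46.8% of 449 such peaks lay in the first part, 26.1% in the middle and 27.2% in the last. On the annotated bodies, the 3′ majority of the listed genes thus rests on Actb. The body of Actb is the joint span of a curated and a predicted transcript. How its peaks divide along the curated transcript alone was not measured.

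The remaining cytoskeleton genes carried few peaks each. Of 118 genes in 8 lists, 41 held a peak (34.7%, exact interval 26.2 to 44.1) against 25.5% of all protein-coding genes, but their median length was 22.8 kb. Of the 33 that are up to 10 kb long, 2 held a peak (6.06%) against 10.2% of all genes of that length, namely Actc1 and Tpm2 with 1 each. No gene of these lists held more than 4, and of their 63 peaks with a known strand 33 had the opposite sign (52.4%).

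Among the other actins, 1 of 5 held a peak, the cardiac actin gene Actc1, and the median was 0. The other tubulins had a peak in 1 of 16, in the epsilon-tubulin gene Tube1, whose product belongs to centrioles. Further genes of actin monomers and turnover had peaks in 6 of 18, with 3 in Cap2 and 2 in Tmsb15l, a thymosin gene, and 1 in Limk1, a kinase of cofilin. Pfn2, Cfl2, Dstn and Tmsb4x, which encode relatives of the profilin, cofilin and thymosin genes listed above, held 0. Nucleators and elongators of actin had peaks in 9 of 19, led by the formin gene Diaph3 with 4 over 486 kb, then Actr3 of the Arp2/3 complex and the formin gene Fmnl3 with 2 each.

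Genes that cap, bundle or crosslink filaments had peaks in 7 of 21, with 2 in the tropomyosin gene Tpm1 and 1 each in Tpm2 and Fscn1. Myosins and linkers to the membrane had peaks in 7 of 15, with 4 in Enah, 3 in the vinculin gene Vcl and 3 in Myh10. Microtubule binding and tubulin folding genes had peaks in 7 of 21, with 2 in Mapre2, 2 in Map4 and 1 in Cct8, a subunit of the chaperonin that folds actin and tubulin. SRF and its actin-regulated partners, the MRTFs, held peaks in 3 of 3: 3 each in Mrtfb and Mrtfa, which are 161 and 178 kb long, and 2 in Srf, which is 11.4 kb. In these 8 lists the median number of peaks was 0, except for SRF and MRTF, where it was 3.

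Of 20 metabolic and housekeeping genes with abundant mRNAs, 10 held a peak (50.0%, exact interval 27.2 to 72.8). Of the 11 up to 10 kb long, 6 did, against 10.2% of all protein-coding genes of that length. The list was chosen with earlier results of these data known, so nothing is read from the difference. Eef1a1, the translation elongation factor gene, held 4, and Ftl1 and Fth1, the ferritin genes, 3 each, all 10 of these with the sign opposite to the gene. Gapdh, Aldoa, Ldha, Pgk1, Ppia, B2m and Tpi1, which are also abundantly expressed in most cells, held 0. So did Npm1, Hprt and Tbp, the remaining genes of the list without a peak. Transcript levels of these cells were not used here, so peaks could not be set against abundance.

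**Figure D5:**
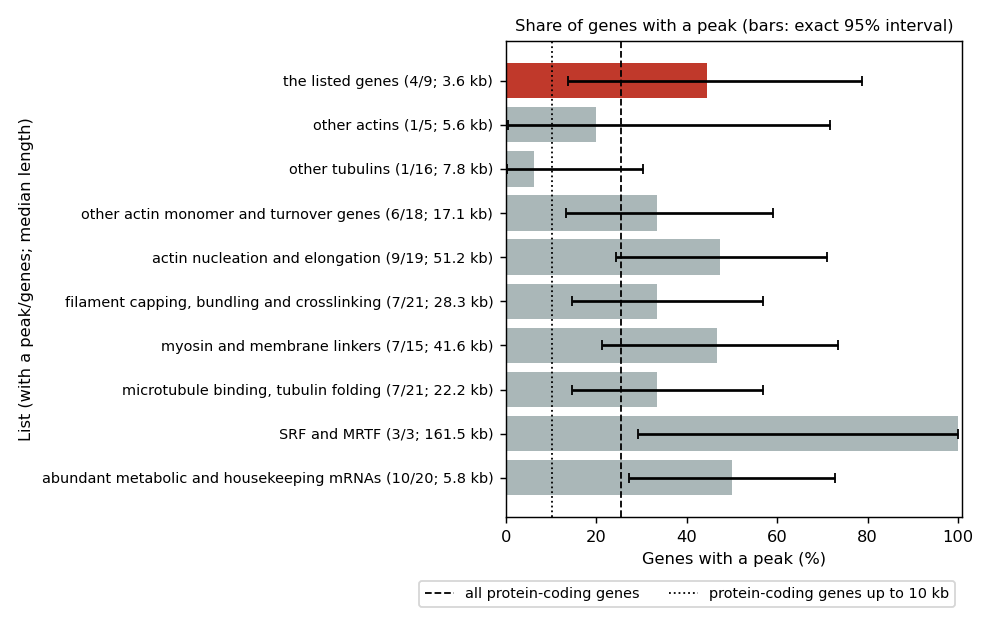
Share of genes with a peak (horizontal axis, percent) in the listed genes (red) and in lists of other genes (grey), with exact 95% intervals; each label gives the genes with a peak, the genes in the list and their median length. The dashed line is the 25.5% of all protein-coding genes and the dotted line the 10.2% of those up to 10 kb; the listed genes stand at 4 of 9, the other tubulins at 1 of 16.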

How the data were processed

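The authors deposited 1 peak list for the 3 samples; cutadapt 1.15, Bowtie 1.0.0 and build mm10 are named, per the submitters' processing notes. The name of the deposited list reads as merged, deduplicated libraries with peaks from Piranha; the caller's settings and which libraries were merged are not given in the sources used here. The deposited list has 4 columns (chromosome, start, end, sign) and no score, so no stricter threshold could be tried; positions are multiples of 20 nt and are given 1-based.

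Peaks were joined by midpoint to gene bodies of the RefSeq table (GRCm38.p6, 49943 genes), with Python 3.11.15, pandas 2.3.3 and scipy 1.17.1. Strand, starts and sequences came from the RefSeq promoter table, which covers 8 of the 9 genes; the strand of Actb is background knowledge. Expected numbers are peak density times gene length. Shares have exact Clopper-Pearson 95% intervals. No test was run. Members and lists were chosen with earlier results of these data known. Named genes are all members, the 3 genes with the most peaks per list, and 5 genes like Actb, of which 1 is not reported here; other named genes were chosen after their values were seen. Protein sequences and exon positions were not used here. The join was tested on simulated peaks.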

Additional observations from a re-analysis of the deposited data

How the results depend on the processing

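Of 26 alternative values, 22 stayed within 1.5 times the reported number or within its interval or SD, and 4 did not. The number of peaks in the 9 genes was 15, and ran from 12 with 20 nt peaks alone to 16 with 1 kb added on each side; 4 genes had a peak under each of these settings. Genes with at least 2 peaks numbered 3 with the opposite sign alone and 3 without peaks in or within 1 kb of small RNA genes. The ratio of observed to expected peaks over all 9 genes was 67.8 by chromosome and 24.1 by the density within 500 kb on either side, since peaks were denser around these genes than on their chromosomes at large. Without Actb, the median position of a peak was 26.8% of the annotated body against 67.2% with it, and the share of peaks of 40 nt was 0% against 20%. Both rest on Actb. The positions depend on how the bodies of Actb and Pfn1 are annotated, and other starts were not tried. Other cytoskeleton genes with a peak numbered 41, and 2 when genes over 10 kb were left out, which by construction leaves fewer genes. No paired analysis was possible because the samples form 1 group with 1 peak list, and for the same reason no replicate could be left out. The unknown depth and the missing control precipitation limit every count.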
